A study of Drosophila melanogaster with 64 samples.

Results

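The transcriptional response of adult Drosophila heads 7 d after a severe traumatic brain injury was measured by setting injured flies against sham-treated flies of the same age and time. TBI flies were w[1118] males (Bloomington stock 5905) given a severe dTBI, a fly model of head trauma, at 3 d of age and frozen 7 d later. Sham flies were w[1118] males of the same stock and age that went through the sham procedure and were frozen at the same time. All flies were reared at 25 °C in a 12 h light-dark cycle. Each library was polyA RNA from 20 pooled whole heads, so a difference in level can reflect fewer cells of a type or less RNA per cell, which cannot be told apart here. The comparison covers all expressed genes in the 3 TBI and 3 sham libraries at 7 d, 6 of the 64 libraries of the series. After the filter on low counts, 10567 of 17481 annotated genes were tested. Only males of 1 stock and 1 grade of injury were studied, and the labels call the samples biological replicates.

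Flies lack antibodies and rely on innate immunity. Peptidoglycan recognition proteins (PGRPs) and related sensors start the Toll and Imd pathways, whose NF-kappaB factors are Dif and Dorsal for Toll and Relish for Imd. Their targets include secreted antimicrobial peptides (AMPs) and the Bomanins, short secreted peptides induced mainly through Toll. JNK and AP-1 signalling drives wound responses, and JAK/STAT signalling induces stress peptides of the Turandot family.

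The 3 TBI libraries held between 12608173 and 13056657 reads assigned to genes and the 3 sham libraries between 10649888 and 11373264. Levels are given below as CPM, gene counts scaled to a common library total with TMM factors. Genes that define the head were present at high levels. The rhodopsin gene ninaE lay between 40689.7 and 45182.5 CPM in TBI heads and between 42956 and 54403.5 CPM in sham heads, and the neuronal gene elav and the glial gene repo were detected in all 6 libraries. The white gene w, mutated in the stock, was at or below 0.460 CPM in TBI heads and at or below 0.719 CPM in sham heads.

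TBI replicate 1 stood apart from the other 5 libraries. On the first principal component of log2 CPM, which held 39.0% of the variance, it scored 30.7, and the other libraries scored between -14.5 and 5.74. It held 16 genes at 10 times or more the level of each other 7 d library and at 1 CPM or more, and no other 7 d library held any. Cyp4g1, a cytochrome P450 of oenocytes, the cells that make cuticular hydrocarbons, had 568, 0.149 and 0.232 CPM in TBI heads, against 0.180, 0.173 and 0.446 CPM in sham heads. The odorant-binding protein gene Obp83a had 6.37 CPM in TBI replicate 1 and at most 0.539 CPM in the rest. The summed level of 17 tested muscle genes was 8298, 4875 and 4733 CPM in TBI heads, against 4614, 4397 and 3489 CPM in sham heads, so it was highest in the same library. Counts of calls are given with and without this library below, as are the changes of the named genes that moved most without it, and the part of these transcripts in the results was not tested beyond those values. Cyp4g1 passed with the replicate block described below (adjusted p = 0.0228), and without replicate 1 of both groups its log2 fold change in that fit was -0.68 (adjusted p = 0.974).

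**Figure D1:**
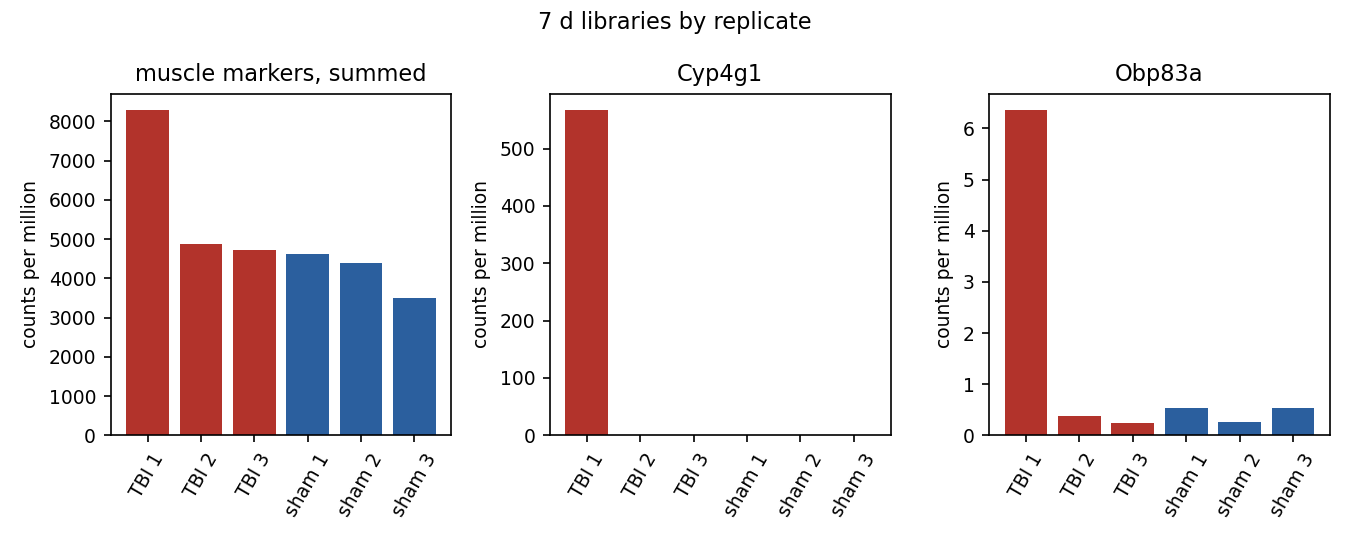
Summed level of muscle marker genes, and level of Cyp4g1 and Obp83a, in CPM, as 1 bar for each 7 d library (red, TBI replicates 1 to 3; blue, sham replicates 1 to 3). TBI replicate 1 has the tallest bar in each panel, with 8298 CPM for muscle genes, 568 CPM for Cyp4g1 and 6.37 CPM for Obp83a.

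At 7 d, 24 genes were higher in TBI heads and 0 were lower by edgeR's quasi-likelihood test at a Benjamini-Hochberg adjusted p under 0.05, which is 0.227% of the genes tested. The 3 TBI libraries all lay above the 3 sham libraries for each of the 24 genes, against 7.7% of all genes tested. The 24 were chosen by a test on the same libraries, so their separation is a description only. Of the 24 genes, 10 belonged to lists of antimicrobial peptides, Bomanins with other Toll-induced peptides, or pathogen recognition proteins, and 14 belonged to none of the 3. The median log2 fold change of all tested genes was 0.01. Before adjustment, 569 genes (5.38%) were higher and 112 (1.06%) lower at p under 0.05, and the smallest adjusted p of a lower gene was 0.245. Same-numbered TBI and sham libraries varied together, and a fit with a replicate block gave 164 higher genes (1.55%) and 3 lower ones (0.0284%), among them 23 of the 24. The 3 lower genes were natalisin, a neuropeptide gene, AkhR, the adipokinetic hormone receptor of fat body, and CG30431, with adjusted p of 0.0257, 0.0357 and 0.0445 in that fit. Without replicate 1 of both groups the blocked fit called 0 genes lower, and these 3 had adjusted p of 0.193, 0.379 and 0.343. Without TBI replicate 1, 5 genes (0.0473%) were higher in the unblocked fit, and without replicate 1 of both groups 39 (0.369%) were higher in the blocked fit, including 12 of the 24. Leaving out any 1 library moved the count of the unblocked fit by more than 1.5 times: it was 7 when TBI replicate 2 was dropped and 40 when TBI replicate 3 was, and among the sham libraries dropping replicate 2 left 4 genes while dropping replicate 1 or replicate 3 left 0. DESeq2, run without the filter on low counts, called 113 of 15507 genes (0.729%) higher and 0 lower.

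**Figure D2:**
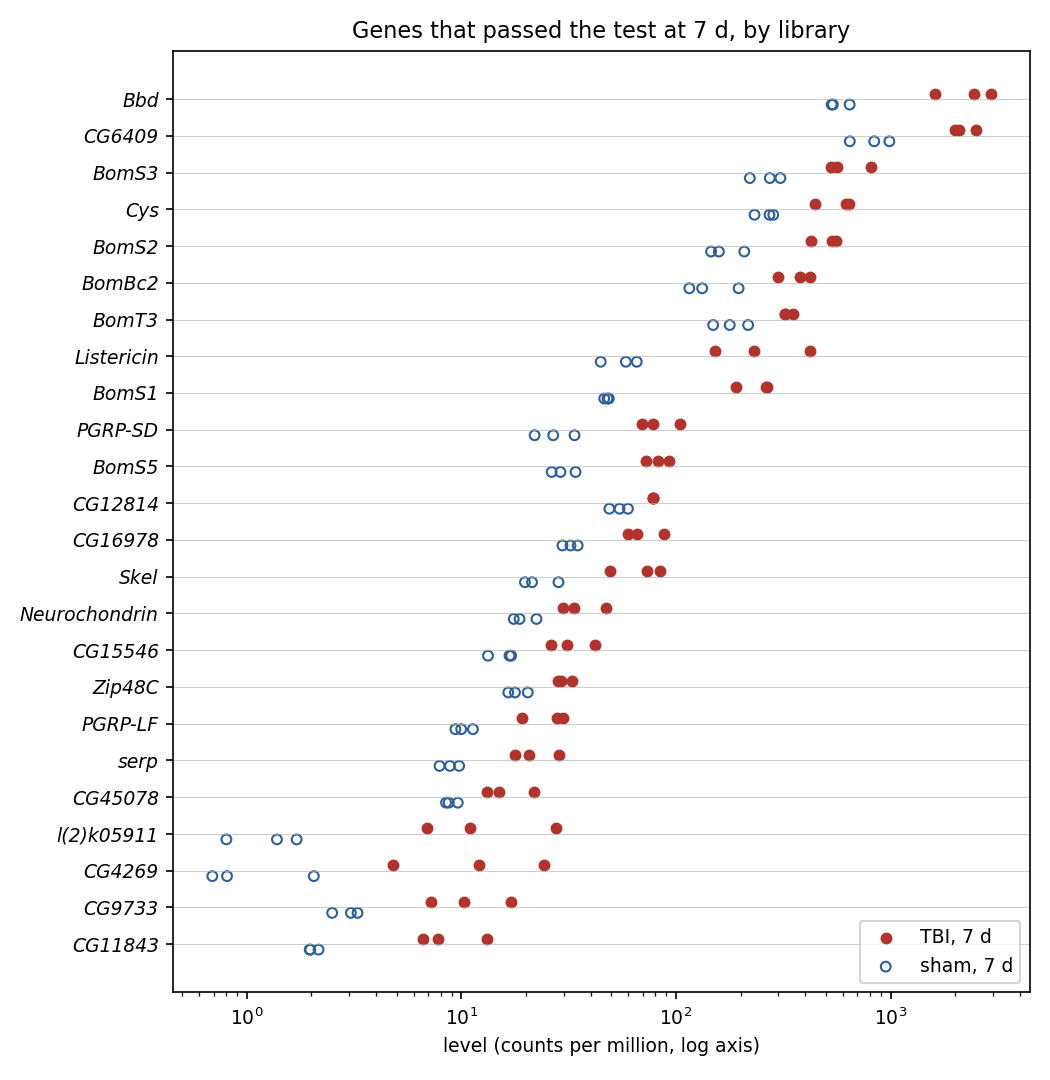
Level of the 24 genes that passed the test at 7 d, in CPM on a log axis, with 1 point for each library (filled red, TBI; open blue, sham). For every gene the 3 TBI points lie to the right of the 3 sham points, from CG11843 at a few CPM to Bbd at 1610 CPM or more in TBI heads.

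Bomanins and related peptides formed the largest group of genes that rose. Of 20 listed genes, 19 were tested and 7 rose, with a median log2 fold change of 1.34 over the tested members against 0.01 over all genes. BomS1 had 265, 262 and 189 CPM in TBI heads, against 48.6, 46.3 and 47.9 CPM in sham heads. The TBI libraries were all more than 3 times the highest sham library, and BomS1 rose by 2.33 ± 0.46 SE on the log2 scale (adjusted p = 0.0308). BomS2, a neighbour of BomS1 in the same gene cluster, had 531, 553 and 425 CPM in TBI heads, against 146, 208 and 158 CPM in sham heads. BomS3 had 526, 811 and 564 CPM in TBI heads, against 221, 306 and 273 CPM in sham heads. BomS5 had 82.2, 92.9 and 72.7 CPM in TBI heads, against 28.9, 34.0 and 26.3 CPM in sham heads. The log2 fold changes of these 3 short Bomanins were 1.56, 1.25 and 1.47, with adjusted p of 0.0305, 0.0288 and 0.00921. The groups stayed apart for each, and BomS5 had the smallest spread between replicates relative to its change.

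The bicipital Bomanin BomBc2, which encodes more than 1 Bomanin motif, had 378, 422 and 299.7 CPM in TBI heads, against 115, 196 and 132 CPM in sham heads, and rose by 1.31 ± 0.26 SE on the log2 scale (adjusted p = 0.0305). The tailed Bomanin BomT3 had 322, 323 and 352 CPM in TBI heads, against 149, 217 and 178 CPM in sham heads. Its change was small, 0.88 ± 0.19 SE on the log2 scale (adjusted p = 0.0417), and the TBI libraries were close together. Bbd (Bombardier), a gene needed for the activity of the short Bomanins, had 2928, 2440.2 and 1609.7 CPM in TBI heads, against 531, 644 and 538 CPM in sham heads. TBI replicate 3 was the lowest of the TBI libraries and was still more than 2 times the highest sham library, and the log2 fold change was 2.03 ± 0.41 SE on the log2 scale (adjusted p = 0.0348).

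The members next in order did not pass the test. BomBc3 had 253, 134 and 103 CPM in TBI heads, against 55.6, 39.4 and 43.5 CPM in sham heads (log2 fold change 1.82 ± 0.40 SE, adjusted p = 0.0576). The Daisho peptide gene Dso2 had 247, 323 and 235 CPM in TBI heads, against 91.1, 119 and 109 CPM in sham heads (log2 fold change 1.34 ± 0.30 SE, adjusted p = 0.0621). BomT2 and BomT1 had log2 fold changes of 1.01 and 2.19, with adjusted p of 0.115 and 0.117. The groups did not overlap in any of these 4 genes. Over the list, 16 of the 19 tested members lay higher in every TBI library than in any sham library, against 7.7% of all genes tested. With the replicate block 13 members rose, or 6 without replicate 1 of both groups, and DESeq2 called 14. In the unblocked fit 1 member passed without TBI replicate 1, 1 without TBI replicate 2 and 2 without sham replicate 2, and 0 passed when sham replicate 1 or 3 was dropped, while the median without TBI replicate 1 was 1.36. Many Bomanin genes, though not all genes of the list, lie next to each other and resemble each other closely. How reads were assigned between them is not known, so the split between single Bomanins is uncertain.

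Among 17 listed recognition proteins, 14 were tested and 2 rose, with a median log2 fold change of 0.83. PGRP-SD, a secreted recognition protein that promotes peptidoglycan sensing, had 104, 77.8 and 69.6 CPM in TBI heads, against 21.9, 26.8 and 33.6 CPM in sham heads, a log2 fold change of 1.61 ± 0.27 SE on the log2 scale (adjusted p = 0.0112). PGRP-LF, a membrane protein that dampens the Imd receptor, had 28.0, 29.6 and 19.1 CPM in TBI heads, against 9.97, 11.3 and 9.37 CPM in sham heads, a log2 fold change of 1.32 ± 0.27 SE on the log2 scale (adjusted p = 0.0368). Both overlap a gene on the opposite strand (CG7492 and UGP), as do Cys, BomBc2, CG4269 and CG11843, and whether the counting used strand is not known here. PGRP-LC, the Imd receptor, had 91.2, 90.2 and 91.2 CPM in TBI heads, against 65.2, 78.3 and 70.3 CPM in sham heads. Its change was small and even, log2 fold change 0.35 ± 0.08 SE, adjusted p = 0.0673, and it did not pass. PGRP-SA, a circulating sensor of the Toll pathway, had 52.3, 31.2 and 18.1 CPM in TBI heads, against 8.18, 12.3 and 12.2 CPM in sham heads, with TBI replicate 1 the highest (log2 fold change 1.64 ± 0.40 SE, adjusted p = 0.103). GNBP-like3 had 206, 136 and 73.6 CPM in TBI heads, against 35.1, 35.9 and 37.1 CPM in sham heads (log2 fold change 1.94 ± 0.47 SE, adjusted p = 0.103). PGRP-SB1, an enzyme that cleaves peptidoglycan, had 170.1, 203 and 162 CPM in TBI heads, against 56.9, 49.3 and 79.4 CPM in sham heads (log2 fold change 1.53 ± 0.43 SE, adjusted p = 0.194). Every TBI library lay above every sham library in 10 of the 14 tested members, against 7.7% of all genes tested. The replicate block brought the count to 4, with PGRP-LC (adjusted p = 0.0488) and GNBP-like3 (adjusted p = 0.0305) added. With the block and without replicate 1 of both groups the count was 0. In the unblocked fit the count was 1 without TBI replicate 2, 4 without TBI replicate 3 and 0 without any other 1 of the 6 libraries, and without TBI replicate 1 the median was 0.61.

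Antimicrobial peptides had the largest fold changes of any immune list but mostly failed the test. Of 22 listed genes, 18 were tested, and all 18 also passed the filter on low counts when the 3 TBI libraries were left out of it. All 18 lay higher in every TBI library than in any sham library, as did 7.7% of all genes tested. Their median log2 fold change was 3.10, and 1 passed. That gene was Listericin, which encodes an antibacterial peptide and had 419.6, 232 and 152 CPM in TBI heads, against 44.6, 58.4 and 65.6 CPM in sham heads. It rose by 2.25 ± 0.45 SE on the log2 scale (adjusted p = 0.0308). TBI replicate 1 was the highest library, and without it the log2 fold change was 1.77 (adjusted p = 0.314). Listericin had an adjusted p of 0.0634 with the replicate block, and in the unblocked fit it lost its call without any 1 of the libraries but TBI replicate 3.

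The antifungal peptide gene Drs had 416, 234 and 97.7 CPM in TBI heads, against 16.3, 4.32 and 7.50 CPM in sham heads. The lowest TBI library was above the highest sham library, but the TBI values themselves differed widely, and the fold change of 4.74 ± 1.67 SE on the log2 scale (adjusted p = 0.405) did not pass. AttC, an attacin active against Gram-negative bacteria, had 593, 509.8 and 329 CPM in TBI heads, against 65.2, 30.0 and 109.7 CPM in sham heads, with a log2 fold change of 2.81 ± 0.93 SE on the log2 scale (adjusted p = 0.335). DptA, a diptericin, had 203, 104 and 94.5 CPM in TBI heads, against 16.3, 5.35 and 30.9 CPM in sham heads, and Mtk, metchnikowin, had 351, 362 and 287 CPM in TBI heads, against 60.1, 33.3 and 112 CPM in sham heads. Neither passed, with log2 fold changes of 2.94 and 2.28 and adjusted p of 0.437 and 0.289. The 4 members next in order of p were Drsl5, AttB, Def and CecB. Drsl5 had 219, 374 and 199.9 CPM in TBI heads, against 112, 113 and 92.4 CPM in sham heads, AttB had 158, 151 and 72.4 CPM in TBI heads, against 14.9, 7.34 and 17.4 CPM in sham heads, Def had 66.4, 16.0 and 26.2 CPM in TBI heads, against 6.11, 2.94 and 6.96 CPM in sham heads, and CecB had 1.53, 3.13 and 1.16 CPM in TBI heads, against 0.180, 0 and 0.0892 CPM in sham heads. Their log2 fold changes were 1.32, 3.27, 2.76 and 4.35, and their adjusted p were 0.126, 0.126, 0.135 and 0.221. The number of AMP genes called depended on the model: 0 with the replicate block, 2 when the fit used the 6 libraries alone, and 10 in DESeq2, where Drs had an adjusted p of 0.0287.

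**Figure D3:**
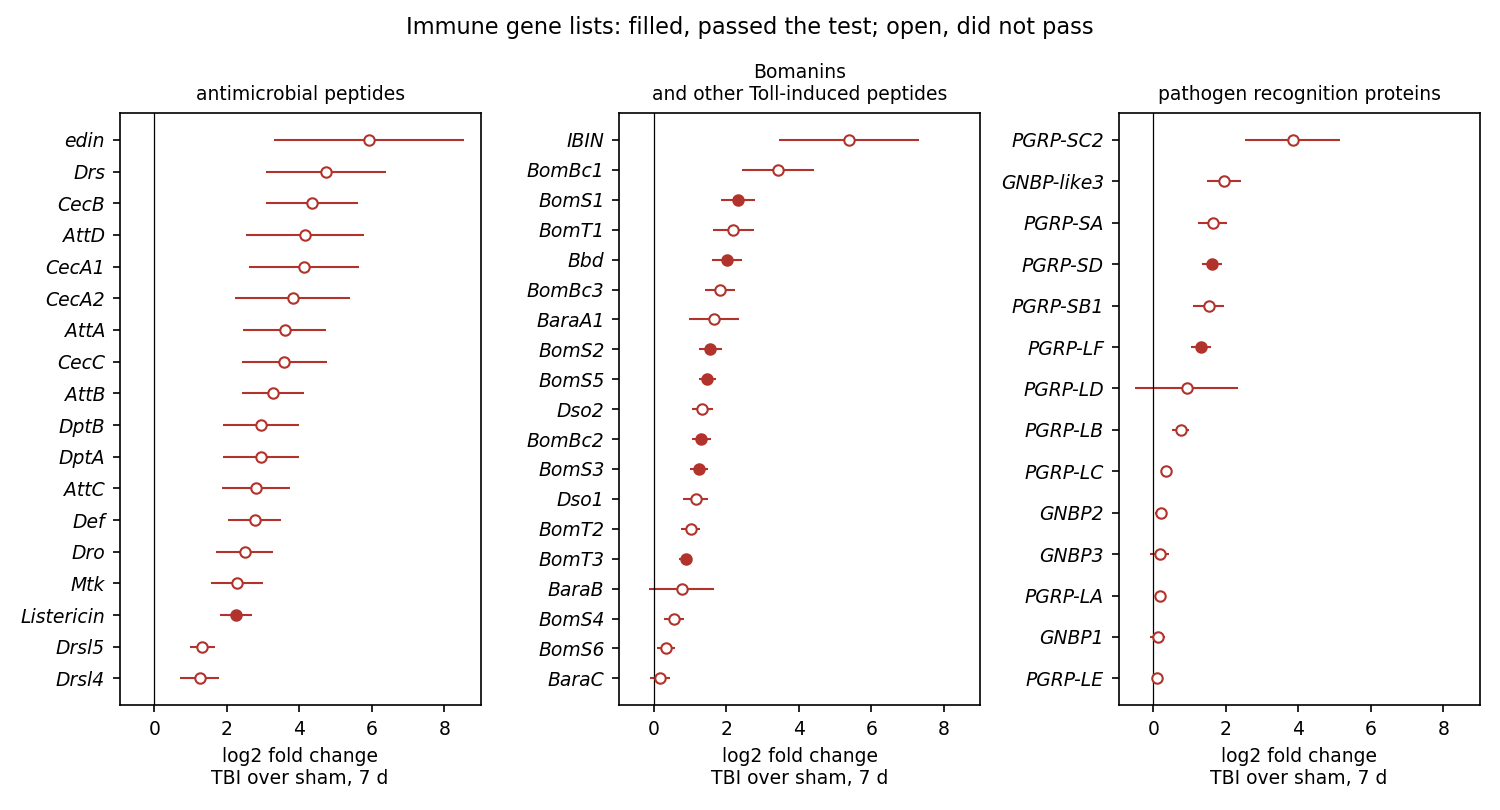
Log2 fold change of TBI over sham at 7 d for the tested members of 3 immune lists; points are the edgeR estimate and bars its SE, filled where the adjusted p was under 0.05. All 18 AMP genes lie above 0 with wide bars and 1 is filled (Listericin), and 7 Bomanin-list genes and 2 recognition genes are filled.

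The sham libraries at 7 d had low AMP levels beside the sham libraries of other times. The summed level of the tested AMP genes was 3456, 2778 and 1833 CPM in TBI heads at 7 d, against 449, 350.3 and 646 CPM in sham heads at 7 d. Across the 11 TBI libraries of the other times the sum ran from 1134 to 6192 CPM, a range that holds all 3 TBI values at 7 d. Across the 11 sham libraries of the other times it ran from 458 to 2880 CPM, and 1 of them lay below the highest 7 d sham library. The spread between replicates was wide elsewhere too, with sums of 1126, 458 and 2880 CPM in the sham libraries at 10 d. The summed Bomanin list was 7239, 8251 and 6232 CPM in TBI heads at 7 d, against 2172, 3286 and 2701 CPM in sham heads at 7 d. For that list the 7 d sham libraries lay inside the range of the other sham libraries, 1967 to 4124 CPM.

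**Figure D4:**
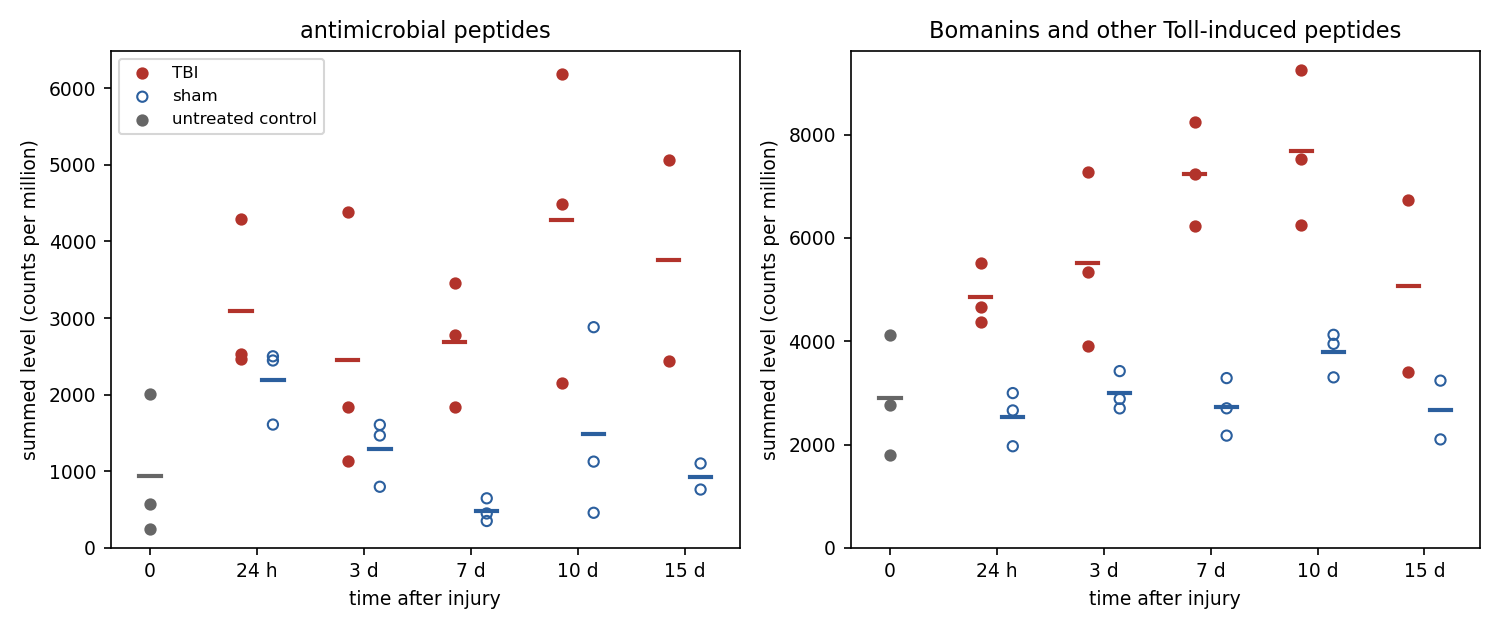
Summed level of the antimicrobial peptide list and of the Bomanin list, in CPM, in each library of library day 1 (filled red, TBI; open blue, sham; grey, untreated control; short lines, group means). At 7 d the AMP sums are 1833 to 3456 CPM after TBI and 350.3 to 646 CPM in sham, and the Bomanin sums are 6232 to 8251 CPM after TBI and 2172 to 3286 CPM in sham.

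The other 14 genes that rose lay outside these lists. Among them were 3 genes annotated as serine proteases, a class that includes the Toll-activating cascade of the hemolymph. The protease gene l(2)k05911 had 27.7, 10.97 and 6.88 CPM in TBI heads, against 1.71, 1.38 and 0.803 CPM in sham heads. It rose by 3.54 ± 0.60 SE on the log2 scale (adjusted p = 0.0112), or by 2.77 without TBI replicate 1, the highest library. CG11843 had 7.75, 13.1 and 6.65 CPM in TBI heads, against 1.98, 2.16 and 1.96 CPM in sham heads (log2 fold change 2.17 ± 0.44 SE, adjusted p = 0.0305). CG9733 had 10.3, 17.0 and 7.19 CPM in TBI heads, against 3.05, 3.28 and 2.50 CPM in sham heads (log2 fold change 1.96 ± 0.40 SE, adjusted p = 0.0308). All 3 were low in sham heads, and the TBI values varied several-fold between replicates for l(2)k05911 and less for the others. Cys, a cystatin-like inhibitor of cysteine proteases, had 446, 617 and 638 CPM in TBI heads, against 232, 272 and 284 CPM in sham heads (log2 fold change 1.11 ± 0.22 SE, adjusted p = 0.0288). Here TBI replicate 1 was the lowest of the TBI libraries.

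CG6409 had 1995, 2491 and 2073 CPM in TBI heads, against 645, 986 and 838 CPM in sham heads, and rose by 1.41 ± 0.22 SE on the log2 scale (adjusted p = 0.00921). Zip48C, of the ZIP family of zinc transporters, had 29.1, 32.9 and 28.1 CPM in TBI heads, against 16.5, 20.4 and 17.8 CPM in sham heads, and rose by 0.72 ± 0.12 SE on the log2 scale (adjusted p = 0.00921). These and BomS5 shared the smallest adjusted p of the comparison. CG16978 had 59.5, 88.1 and 65.5 CPM in TBI heads, against 29.6, 34.8 and 32.2 CPM in sham heads (log2 fold change 1.14 ± 0.21 SE, adjusted p = 0.0168), and CG15546 had 42.0, 31.2 and 26.3 CPM in TBI heads, against 13.3, 16.7 and 17.0 CPM in sham heads (log2 fold change 1.08 ± 0.19 SE, adjusted p = 0.0127). CG6409, BomS5, Zip48C, CG16978 and Cys were the 5 genes that still passed without TBI replicate 1.

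Skel (Skeletor), first described as a spindle matrix protein, had 83.8, 73.6 and 49.4 CPM in TBI heads, against 19.8, 28.3 and 21.3 CPM in sham heads (log2 fold change 1.57 ± 0.29 SE, adjusted p = 0.0192). serp (serpentine), a chitin deacetylase of tracheal cuticle, had 28.6, 20.6 and 17.8 CPM in TBI heads, against 7.91, 9.76 and 8.83 CPM in sham heads (log2 fold change 1.34 ± 0.29 SE, adjusted p = 0.0453). Neurochondrin, related to a vertebrate neuronal protein of that name, had 47.0, 29.6 and 33.3 CPM in TBI heads, against 22.4, 17.5 and 18.7 CPM in sham heads (log2 fold change 0.91 ± 0.18 SE, adjusted p = 0.0288). In all 3 genes the lowest TBI library was above the highest sham library by a clear margin. CG4269 had 24.3, 12.0 and 4.79 CPM in TBI heads, against 0.809, 0.691 and 2.05 CPM in sham heads (log2 fold change 3.53 ± 0.73 SE, adjusted p = 0.0412). It was 1 of 2 genes, with l(2)k05911, whose fold change moved by more than 1.5 times when 1 library was left out, to 2.82 without TBI replicate 1 and 4.18 without sham replicate 3 on the log2 scale. CG45078 had 21.7, 13.1 and 15.0 CPM in TBI heads, against 9.61, 8.72 and 8.48 CPM in sham heads (log2 fold change 0.89 ± 0.18 SE, adjusted p = 0.0305), and it overlaps CG45076 and fau on the same strand. CG12814 had the smallest change of the 24 genes and nearly equal TBI libraries: 78.2, 78.0 and 77.7 CPM in TBI heads, against 48.9, 59.7 and 54.5 CPM in sham heads (log2 fold change 0.52 ± 0.11 SE, adjusted p = 0.0453).

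No signalling component of the Toll or Imd pathway passed by edgeR without the replicate block when all 31 libraries were kept. With 1 of the 7 d libraries left out the count was 0 to 1 in each pathway. Of 17 Toll pathway members 0 passed by edgeR and 7 were higher at an unadjusted p under 0.05, against 5.38% of all genes tested. DESeq2 called 2, against 0.729% of the genes it tested, and the median log2 fold change was 0.19. dl, which encodes the NF-kappaB factor Dorsal, had 118, 106 and 94.9 CPM in TBI heads, against 68.0, 80.3 and 77.2 CPM in sham heads (log2 fold change 0.50 ± 0.12 SE, adjusted p = 0.0673). The serine proteases grass, SPE and spirit, which belong to the cascade that activates the Toll ligand, had log2 fold changes of 1.00, 0.73 and 0.75 and adjusted p of 0.153, 0.226 and 0.248. With the replicate block 5 members rose, against 1.55% of all genes tested. Among the 5 were dl (adjusted p = 0.0411), grass (0.0113), SPE (0.00352) and spirit (0.0246). Without replicate 1 of both groups, grass (adjusted p = 0.0332) was the 1 of the 5 that passed in that fit. Of 11 Imd pathway members 0 passed by edgeR and 2 were higher at an unadjusted p under 0.05, against the same 5.38%. DESeq2 called 2, against 0.729%, and the median was 0.14. Rel, which encodes the NF-kappaB factor Relish, had 242, 242 and 155 CPM in TBI heads, against 117, 163 and 109 CPM in sham heads (log2 fold change 0.72 ± 0.19 SE, adjusted p = 0.122), and passed with the block (adjusted p = 0.0392) but not with the block and without replicate 1 of both groups (0.471). pirk, a feedback inhibitor of the pathway, had 24.2, 22.3 and 22.6 CPM in TBI heads, against 9.61, 11.3 and 12.7 CPM in sham heads (log2 fold change 1.04 ± 0.30 SE, adjusted p = 0.218).

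No JAK/STAT or wound-response gene passed by edgeR without the replicate block at 7 d when all 31 libraries were kept. Of 10 tested JAK/STAT components 0 passed by edgeR or DESeq2. At an unadjusted p under 0.05 in edgeR 2 were higher, against 5.38% of all genes tested. The ligand genes upd2 and upd3 were near the limit of detection: upd2 had 1.61, 0.597 and 0.386 CPM in TBI heads, against 0, 0.0863 and 0 CPM in sham heads, and upd3 had 1.69, 0.671 and 0.927 CPM in TBI heads, against 0.359, 0.0863 and 0.446 CPM in sham heads. Of 10 tested Turandot and other JAK/STAT-responsive genes 0 passed by edgeR without the block. DESeq2 called 1 (Diedel), against 0.729% of the genes it tested. At an unadjusted p under 0.05 in edgeR 6 were higher, against 5.38% of all genes tested. All 10 had a positive log2 fold change, with a median of 0.86. Diedel, a secreted immune regulator, had 9.05, 2.84 and 2.47 CPM in TBI heads, against 0.180, 0.863 and 1.07 CPM in sham heads (log2 fold change 2.75 ± 0.69 SE, adjusted p = 0.114). TotA, a Turandot peptide, had 391, 145 and 121 CPM in TBI heads, against 59.8, 145 and 163 CPM in sham heads, and TotM had 19.9, 1.79 and 0.386 CPM in TBI heads, against 0.898, 2.50 and 1.34 CPM in sham heads. TBI replicate 1 alone was above the sham range for TotA and TotM. Without it TotA had a log2 fold change of 0.11, against 0.83 with it, and TotM one of -0.54, against 2.21 with it. The log2 fold change of Diedel without it was 1.89. vir-1, a virus-induced gene, and Tep2, a thioester-containing protein of the hemolymph, passed with the replicate block (adjusted p = 0.00684 and 0.00644), and neither passed in that fit without replicate 1 of both groups (0.124 and 0.171).

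Of 18 AP-1 and JNK wound-response genes 0 passed in the unblocked fit, or 0 to 1 with 1 of its 7 d libraries left out. At an unadjusted p under 0.05 in edgeR 4 were higher, against 5.38% of all genes tested. DESeq2 called 3, against 0.729% of the genes it tested, and the median log2 fold change was 0.15. Mmp1, a matrix metalloproteinase induced at wounds, had 64.3, 58.3 and 53.9 CPM in TBI heads, against 31.4, 36.8 and 32.1 CPM in sham heads. The groups did not overlap, the log2 fold change was 0.82 ± 0.21 SE on the log2 scale (adjusted p = 0.117), and the adjusted p with the replicate block was 0.0491, or 0.455 without replicate 1 of both groups. Ets21C, a stress-induced transcription factor, had 13.0, 4.40 and 3.25 CPM in TBI heads, against 1.89, 2.07 and 2.41 CPM in sham heads (log2 fold change 1.69 ± 0.54 SE, adjusted p = 0.286). Without TBI replicate 1, its highest library, the log2 fold change of Ets21C was 0.84. The AP-1 subunits kay (Fos) and Jra (Jun) and the JNK phosphatase gene puc had log2 fold changes of 0.15, 0.23 and 0.20, with adjusted p of 0.966, 0.707 and 0.866. Of 15 melanization and clotting genes 0 passed by edgeR without the block or by DESeq2. At an unadjusted p under 0.05, 4 were higher, against 5.38% of all genes tested. With the replicate block 3 rose, against 1.55% of all genes, and none of the 3 passed without replicate 1 of both groups. Cht2, a chitinase, had the smallest p of the list (log2 fold change 1.03 ± 0.32 SE, adjusted p = 0.271).

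No cell type marker passed by edgeR without the replicate block or by DESeq2, and with the block Cyp4g1 and AkhR passed as given above. At an unadjusted p under 0.05, 5.38% of all genes tested were higher and 1.06% lower. Higher were 1 of 12 glial, 8 of 17 muscle, 2 of 8 gut and 2 of 4 oenocyte genes. No hemocyte, neuronal or photoreceptor gene was higher, and 1 of 14 fat body genes was lower. Medians of the log2 fold change were 0.18 for 15 hemocyte genes, 0.22 for 12 glial genes, -0.13 for 20 neuronal genes, -0.13 for 17 photoreceptor genes and 0.08 for 14 fat body genes. elav had 217, 201 and 255 CPM in TBI heads, against 275, 226 and 235 CPM in sham heads (log2 fold change -0.13 ± 0.16 SE, adjusted p = 0.966), and repo had 27.2, 39.5 and 38.3 CPM in TBI heads, against 24.0, 47.1 and 37.0 CPM in sham heads (log2 fold change -0.04 ± 0.22 SE, adjusted p = 0.995). Hemocytes are blood cells that make several immune proteins, and 12 of their 15 genes had a positive log2 fold change, against 5444 of the 10567 genes tested. The hemocyte median was 0.08 without TBI replicate 1. Positive changes were found in 8 of 12 glial, 8 of 14 fat body, 1 of 20 neuronal and 0 of 17 photoreceptor genes. Fat body is the main source of secreted immune peptides, and its summed marker level was 6022, 11984 and 11802 CPM in TBI heads, against 7503, 13427 and 9278 CPM in sham heads. Those ranges overlap, and TBI replicate 1 was the lowest library. The 17 tested muscle genes had a median of 0.47, or 0.17 without TBI replicate 1, and up, Mlc2 and Tm2 had adjusted p of 0.285, 0.346 and 0.364. Of the gut list 8 of 16 genes were tested, of the oenocyte list 4 of 8 and of the male reproductive tract list 2 of 15. The medians of these 3 short lists were larger, at 2.51, 1.89 and 0.65 in that order. Without TBI replicate 1 they were 0.0, 0.42 and 1.11. The digestive amylase genes Amy-d and Amy-p varied within groups: Amy-d had 158, 44.8 and 145 CPM in TBI heads, against 17.4, 45.5 and 57.8 CPM in sham heads.

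Stress and metabolic lists held no gene that passed by edgeR, with or without the replicate block, or by DESeq2. At most 2 members of each were higher at an unadjusted p under 0.05, against 5.38% of all genes tested. Medians were 0.43 for 15 heat shock genes, 0.15 for 31 detoxification and redox genes, 0.09 for 12 endoplasmic reticulum stress genes, -0.03 for 10 clock genes, 0.05 for 14 glycolytic genes and 0.09 for 18 genes of carbohydrate and storage metabolism. Ldh, lactate dehydrogenase, had 29.3, 25.7 and 25.7 CPM in TBI heads, against 12.1, 11.1 and 11.1 CPM in sham heads. The TBI libraries were all more than 2 times the highest sham library, the log2 fold change was 1.24 ± 0.50 SE on the log2 scale (adjusted p = 0.609), and it did not pass. GstD1, a glutathione transferase, had 226, 244 and 240.1 CPM in TBI heads, against 127, 176 and 172 CPM in sham heads (log2 fold change 0.58 ± 0.24 SE, adjusted p = 0.618). The insulin-like peptide gene Ilp6 had 45.5, 49.5 and 62.4 CPM in TBI heads, against 22.9, 43.3 and 40.4 CPM in sham heads (log2 fold change 0.56 ± 0.25 SE, adjusted p = 0.712). The 14 tested genes of the mitochondrial genome had a median of -0.02, and its transcripts made up 2.55 to 3.94% of gene reads in TBI heads and 2.52 to 4.10% in sham heads.

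No gene was called lower in TBI heads by DESeq2 or by edgeR without the replicate block, and the 12 lower genes with the smallest p are described here. Ctps, CTP synthase, came first with 40.1, 42.8 and 42.3 CPM in TBI heads, against 50.3, 48.3 and 49.2 CPM in sham heads (log2 fold change -0.24 ± 0.07 SE, adjusted p = 0.245). salm, a zinc finger transcription factor gene, had 14.6, 16.9 and 17.0 CPM in TBI heads, against 20.8, 20.1 and 23.2 CPM in sham heads (log2 fold change -0.40 ± 0.13 SE, adjusted p = 0.289), and drl, a receptor tyrosine kinase-like gene of axon guidance, had 35.9, 38.9 and 35.3 CPM in TBI heads, against 48.8, 43.4 and 42.3 CPM in sham heads (log2 fold change -0.29 ± 0.10 SE, adjusted p = 0.313). CG16898 had 10.8, 13.1 and 9.74 CPM in TBI heads, against 19.7, 26.5 and 18.0 CPM in sham heads (log2 fold change -0.93 ± 0.31 SE, adjusted p = 0.324). Each TBI library lay below each sham library in these 4 genes, as in 5.05% of all tested genes. Among the other 8 were CG32829 and lncRNA:CR44506, both near the limit of detection. CG32829 had 0.0767, 0.149 and 0 CPM in TBI heads, against 0.359, 0.777 and 0.268 CPM in sham heads (log2 fold change -2.52 ± 0.87 SE, adjusted p = 0.357), and lncRNA:CR44506 had 0.920, 0.373 and 0.850 CPM in TBI heads, against 1.98, 1.90 and 0.982 CPM in sham heads (log2 fold change -1.18 ± 0.41 SE, adjusted p = 0.359). The rest were barr, CG34231, HPS1, CG14650, Bmcp and lncRNA:CR44566, with log2 fold changes between -0.52 and -0.21 and adjusted p between 0.274 and 0.411.

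The injury effect at 7 d was then set against the effect at other times of the same library day, which used other libraries. Of the 24 genes that rose at 7 d, 21 also rose at 24 h (87.5% of the 24, 2.61% of the 804 genes higher at 24 h, which were 7.61% of those tested). At 3 d 8 also rose (33.3%, and 6.02% of 133, or 1.26% of those tested) and at 10 d 9 also rose (37.5%, and 18.4% of 49, or 0.464% of those tested). All 24 had a positive log2 fold change at 24 h, 3 d and 10 d, and 23 had one at 15 d, CG45078 being the exception. At 24 h their median log2 fold change was 1.08. It was 1.11 at 3 d, then 1.37 at 7 d, 1.10 at 10 d and finally 0.97 at 15 d. The genes were chosen by their values at 7 d, so the 7 d median is a description only. For none of the 24 did the effect differ between 7 d and 24 h, 3 d or 10 d at an adjusted p under 0.05 in edgeR. At an unadjusted p under 0.05 the counts were 4, 7 and 2, against 10.2%, 2.95% and 1.4% of all genes tested. These tests use the same 7 d values by which the 24 were chosen. The counts are therefore a description only and cannot be set fairly against the shares of all genes. Without sham replicate 1 or without sham replicate 3, 0 genes passed at 7 d, so 0 were shared with any other time.

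**Figure D5:**
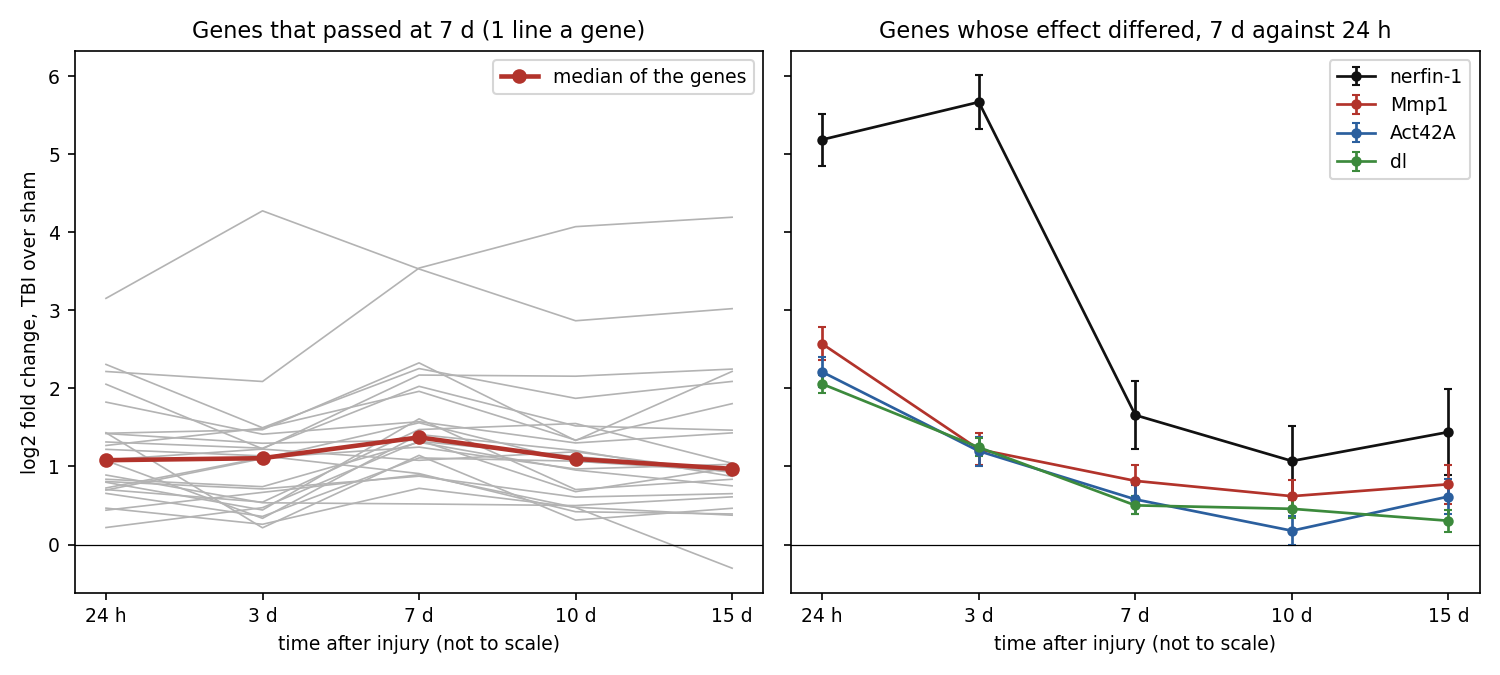
Log2 fold change of TBI over sham at each time after injury (spacing not to scale): left, 1 grey line for each of the 24 genes that rose at 7 d, with their median in red; right, 4 genes whose effect differed between 7 d and 24 h, with SE bars. The median stays between 0.97 and 1.37, while nerfin-1 stands at 5.19 at 24 h, 5.67 at 3 d and 1.66 at 7 d.

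For other genes the effect at 7 d did differ from the early effect. Between 7 d and 24 h, 75 genes differed (0.71% of those tested), 26 with a higher (0.246%) and 49 with a lower effect (0.464%) at 7 d. The count of 75 was 28 when TBI replicate 2 at 7 d was dropped and 35 when TBI replicate 3 was. It was 45 and 20 when sham replicate 1 or sham replicate 3 at 7 d was left out. At 24 h, sham replicate 1 had 10.5% of its reads not aligned and 13.1% of its gene reads from the mitochondrial genome. The other sham and TBI libraries at 24 h had at most 4.69% and 9.89%. No 24 h library was left out, so the dependence of the count on them was not tested. Among the 49 were 8 of 24 tested annexin, Arp2/3, ESCRT-III and integrin genes and 3 of 18 AP-1 and JNK genes. At 7 d itself 0 of those 24 cytoskeletal and membrane-repair genes passed by DESeq2 or by edgeR without the block. At an unadjusted p under 0.05, 6 of them were higher, against 5.38% of all genes tested. With the block 2 passed (Act42A and AnxB9, neither without replicate 1 of both groups), against 1.55% of all genes. The median log2 fold change of that list was 0.18. A further list of 19 genes picked from earlier results of these data held 1 gene that rose at 7 d, l(2)k05911, with a median of 0.53. nerfin-1, a zinc finger factor of neuronal differentiation, had 2.91, 1.72 and 1.00 CPM in TBI heads at 7 d, against 0.629, 0.259 and 0.892 CPM in sham heads at 7 d. At 3 d it had 24.2, 36.9 and 23.1 CPM in TBI heads and 0.577, 0.592 and 0.461 CPM in sham heads. It was the 1 gene whose effect differed between 7 d and 3 d (0.00946% of genes tested), by -4.01 ± 0.62 SE on the log2 scale (adjusted p = 0.0101). That call was lost without sham replicate 1 (adjusted p = 0.162), without sham replicate 3 (0.341) and in a fit of only the groups compared (0.424), with the difference between -3.59 and -4.48 throughout.

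dl had 118, 106 and 94.9 CPM in TBI heads at 7 d and 303, 258 and 275 CPM in TBI heads at 24 h, while the sham libraries of both times lay between 60.9 and 80.3 CPM. Its log2 effect was 1.55 lower at 7 d than at 24 h (difference -1.55 ± 0.16 SE, adjusted p = 9e-06). Mmp1 had 64.3, 58.3 and 53.9 CPM in TBI heads at 7 d and 233, 131 and 247 CPM in TBI heads at 24 h, and its effect differed by -1.75 ± 0.29 SE (adjusted p = 0.00354). Act42A, a cytoplasmic actin, differed by -1.63 (adjusted p = 0.00306). The effect ran the other way for CG42249, with 3.99, 6.49 and 6.11 CPM in TBI heads, against 1.89, 3.11 and 2.32 CPM in sham heads at 7 d and 1.38, 1.86 and 2.02 CPM in TBI heads, against 3.13, 2.57 and 3.59 CPM in sham heads, at 24 h. Its effect was 1.18 at 7 d and -0.80 at 24 h, a difference of 1.98 ± 0.36 SE (adjusted p = 0.00725). LUBEL, a ubiquitin ligase gene of the Imd pathway, differed by 1.11 (adjusted p = 0.00725).

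Between 7 d and 10 d, 0 genes differed by edgeR at an adjusted p under 0.05, with 148 at an unadjusted p under 0.05, 0 in DESeq2 and 3 with the replicate block. No tested member of the AMP, Bomanin or recognition lists differed in its effect between 7 d and another of these times by edgeR. At an unadjusted p under 0.05 the counts for 24 h were 6 of 18, 1 of 19 and 4 of 14, against 10.2% of all genes. For 3 d they were 2, 3 and 3, against 2.95% of all genes tested, and for 10 d 2, 0 and 1, against 1.4%. For Drs the difference between 7 d and 24 h was 3.52 on the log2 scale (adjusted p = 0.603), and for AttC it was 2.92 (adjusted p = 0.406). AttC had 439.5, 946 and 335 CPM in TBI heads at 24 h and 694, 431 and 744 CPM in sham heads at 24 h, whereas at 7 d the groups were apart as given above.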

How the data were processed

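Per the labels' protocols, RNA was extracted with TRIzol from 20 heads a sample and sequenced on an Illumina NextSeq after TruSeq Stranded library preparation on 2 days; all 7 d libraries belong to the first day. The authors deposited raw read counts per gene, not normalized. The submitters' processing notes name FastQC, MultiQC, HISAT2, Picard, HTSeq and DESeq2, without versions; the genome build, annotation and strand setting are not known from them, so no coordinates or sequences are printed. The 5 non-gene categories of the table, which held 14.6 to 16.3% of the reads of the 7 d libraries, were left out. Gene IDs were paired with symbols for 17342 of 17481 genes.

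All 31 libraries of that day (11 groups) were fitted in 1 edgeR 4.0.16 model (R 4.3.3; filterByExpr, TMM, robust quasi-likelihood, group means, 20 residual degrees of freedom), so groups share 1 estimate of the spread. P-values were adjusted by the Benjamini-Hochberg method over all 10567 genes tested, with a threshold of 0.05; SE is the log2 fold change over the square root of F. The 33 columns of the second day were not used. No pair of 7 d libraries of a group was a duplicate. Same-numbered TBI and sham libraries at 7 d deviated together from their group means (r = 0.36, 0.37 and 0.18), so the numbers were taken as pairs; the labels do not say what they mark. Alternatives were DESeq2 1.42.0, another size factor, no filter, the block, a minimum fold of 1.5, other scalings and samples, and each 7 d library left out. The block without replicate 1 of both groups was added after the data were seen. On simulated counts for this comparison, over 10394 genes, the test recovered 20 of 50 genes changed 1.5-fold, 40 of 50 changed 2-fold and 50 of 50 changed 4-fold, with 3 false calls. The changed genes were drawn from those with an expected count of 20 or more, so recovery at lower counts was not measured. All were changed in the same simulated counts, and they outnumbered the 24 genes called in the data. With more changed genes the Benjamini-Hochberg cutoff is looser, so these rates are not the recovery to be had in the data. No simulated library was made to stand apart from the others of its group.

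The comparison, gene lists and markers were chosen with earlier results of these data known; lists have no test of their own. Genes named are all that passed, the first 12 by p in a direction with fewer, up to 4 others of each immune or signalling list and 3 of each other list by p, up to 8 a direction of each test of a difference between times, and 16 genes fixed by name. Cyp4g1, Obp83a, Obp83b, natalisin and CG30431 were named after their values were seen.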

Additional observations from a re-analysis of the deposited data

Results flagged for a closer look

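The effect of injury at 7 d differed from that at 24 h in 75 genes by the edgeR test of the difference itself, with the log2 effect at 7 d minus that at 24 h given here for the genes with the smallest p in each direction. Lower at 7 d were dl (-1.55), the actin genes Act42A (-1.63) and Act5C (-1.01), the chaperonin subunit genes CCT2 (-0.93) and CCT5 (-1.12), the tubulin gene betaTub56D (-1.11), b (black, -1.58) and CG3097 (-1.69). These genes rose in TBI heads at 24 h, and at 7 d their log2 effects were between 0.10 and 0.66. Higher at 7 d were LUBEL (1.11), CG42249 (1.98), CG42613 (1.19), the phosphofructokinase gene Pfk (0.50), CG9297 (0.95), CG43813 (4.64), CG9399 (0.71) and asRNA:CR45161 (1.64). These were lower in TBI heads than in sham heads at 24 h, and at 7 d none of them passed by edgeR without the replicate block. CG42249 passed at 7 d with the block (adjusted p = 0.0139) and in DESeq2 (adjusted p = 0.00772). Between 7 d and 3 d the effect differed in 1 gene, nerfin-1, by -4.01.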

How the results depend on the processing

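The count of 24 genes was 22 with another size factor, 21 with scaling without the mitochondrial genome and 31 in a fit of the groups compared alone; it was 8 without the filter on low counts, 0 at a minimum fold of 1.5, 167 with the replicate block, 39 with the block and without pair 1, 113 in DESeq2, and 0 to 40 with 1 library left out. The 24 genes kept a positive sign in each of those 6 leave-one-out fits, with adjusted p up to 0.402. That sign was fixed in advance, because every TBI library lay above every sham library for these genes. The 75 genes that differed from 24 h became 248 with the block, 24 in the groups alone, 180 in DESeq2 and 20 to 87 with 1 library left out; the 1 gene that differed from 3 d became 13, 0, 3 and 0 to 2 in the same order; from 10 d the block gave 3. Shared genes, 21 at 24 h, 8 at 3 d and 9 at 10 d, became 6, 2 and 4 without the filter, 121, 56 and 79 with the block, 65, 43 and 44 in DESeq2, and 0 to 29, 0 to 14 and 0 to 13 with 1 library left out. Members passing in the AMP, Bomanin and recognition lists, 1, 7 and 2, became 0, 1 and 1 without the filter, 0, 13 and 4 with the block, 10, 14 and 7 in DESeq2, and 0 to 1, 0 to 7 and 0 to 4 with 1 library left out; the AMP count was 2 in the groups alone, and with the block without pair 1 the AMP and recognition counts were 0. Signs turned for TotM (-0.85), Cyp4g1 (-0.68), TotA (-0.23) and betaTub56D (-0.0103) with the block without pair 1, none of which passed in that fit. Across leave-one-out fits the log2 change of Cyp4g1 ran from -0.48 to 10.02, of TotM from -0.54 to 2.77, of repo from -0.27 to 0.20 and of w from -1.11 to 0.0795. The cause of these shifts was not tested.

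With 3 libraries a group, changes under 2-fold were often missed in simulation. In the data larger changes failed too: of 18 tested AMP genes, with a median log2 fold change of 3.10, 1 passed. Genes that did not pass are therefore not shown to be unchanged.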

Other observations

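Of the 16 genes that set TBI replicate 1 apart at 7 d, Cyp4g1, Obp83a and Obp83b were also followed in the other libraries of the same day. Cyp4g1 was above 1 CPM in 8 of 14 TBI libraries, up to 2595 CPM, and in 6 of 14 sham libraries, up to 1605 CPM, and was at most 0.621 CPM in the 3 untreated controls. The odorant-binding protein genes Obp83a and Obp83b were each above 1 CPM in 6 of 14 TBI libraries, up to 21.4 and 24.4 CPM. In the 14 sham libraries Obp83a reached 0.599 CPM and Obp83b 0.533 CPM, and in the 3 controls they reached 0.459 and 0.388 CPM. The 3 genes were singled out after their values were seen, and the difference between conditions was not tested.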
